A study of Mus musculus with 4 samples.

Results

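Gene expression in the duodenum was set against that in the spinal cord of WT mice and of mice labelled IP6K2-KO. The comparison used all 4 arrays of the series, 1 for each combination of 2 tissues and 2 genotypes, and took duodenum minus spinal cord within each genotype. Every mouse was a male of 20 weeks raised on the plant-based CE-2 diet. All then received the purified iVid-neo diet over 1 week, with a fast of 48 h at the end, so both tissues and both genotypes share this history. The KO mice lack exon 6 of *Ip6k2*, which encodes inositol hexakisphosphate kinase 2, and the WT mice were their littermates. Nothing in the labels says whether an array held RNA of 1 mouse or of a pool. Of 32575 genes or identifiers with a value on every array, 24852 passed the scanner flag for signal well above background in each genotype, in 1 tissue or both, and could be compared. All 4 arrays passed it for 16183. A gene was called higher in a tissue when the difference of its log2 levels was at least 2, a 4-fold change, in the same direction in both genotypes. Pairs of values below are given for WT and then KO.

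The duodenum takes up sugars, amino acids and fat through the brush border of its enterocytes. It also holds mucus-secreting goblet cells, antimicrobial Paneth cells, hormone-secreting enteroendocrine cells, Brunner glands and a muscular wall, and it receives the secretions of the pancreas. The spinal cord is built of neurons, myelinating oligodendrocytes and astrocytes. In whole tissue, more cells of a type and more RNA per cell cannot be told apart.

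Promoter windows of RefSeq (build GRCm38.p6), from 250 bases before to 50 after a start site, are shown for 3 called genes to set enterocyte genes next to a neuronal one. *Sis* encodes sucrase-isomaltase of the brush border, *Fabp1* a fatty acid-binding protein of enterocytes and *Gad1* an enzyme that makes GABA. Capitals mark matches on either strand. The TATA box was searched as TATAAA and the GC box of general promoters as GGGCGG. A half-site of the enterocyte and liver factor HNF1 was searched as GTTAAT. For GATA factors the letters were AGATAA, and for the intestinal CDX factors they were TTTATG. The *Sis* window lies at chr3:72967814-72968113 on the minus strand, the *Fabp1* window at chr6:71199629-71199928 on the plus strand, and the *Gad1* window at chr2:70561879-70562178 on the plus strand.
Sis: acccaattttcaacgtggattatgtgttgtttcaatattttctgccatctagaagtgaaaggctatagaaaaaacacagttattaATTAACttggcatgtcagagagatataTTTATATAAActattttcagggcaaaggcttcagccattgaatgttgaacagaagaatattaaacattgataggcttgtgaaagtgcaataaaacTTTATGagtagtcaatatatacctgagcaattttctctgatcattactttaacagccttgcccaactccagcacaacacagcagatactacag
Fabp1: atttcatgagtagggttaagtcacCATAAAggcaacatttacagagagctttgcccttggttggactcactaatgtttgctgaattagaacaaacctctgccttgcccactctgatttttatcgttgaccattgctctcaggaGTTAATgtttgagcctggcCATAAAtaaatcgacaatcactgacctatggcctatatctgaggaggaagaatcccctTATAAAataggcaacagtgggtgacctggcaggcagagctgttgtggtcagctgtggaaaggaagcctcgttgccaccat
Gad1: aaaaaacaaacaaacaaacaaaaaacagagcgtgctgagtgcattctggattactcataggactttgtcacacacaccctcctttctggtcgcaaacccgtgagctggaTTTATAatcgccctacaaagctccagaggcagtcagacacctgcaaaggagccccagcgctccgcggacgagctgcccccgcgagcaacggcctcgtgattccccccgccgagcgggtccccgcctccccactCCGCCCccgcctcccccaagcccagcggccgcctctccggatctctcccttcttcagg
The *Sis* window held matches to the HNF1 half-site and the CDX letters and 2 matches to the TATA box that overlap each other, with a GC content of 34%. The *Fabp1* window also held HNF1, CDX and TATA letters, with a GC content of 45%. In *Gad1* the GC content was 60%, and the matches were to the TATA and GC boxes.

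Windows were at hand for 1833 of the genes called higher in duodenum, for 1541 called higher in spinal cord and for 13245 of all compared genes. TATAAA stood in 14.4% of the windows of duodenum genes, in 7.93% of those of spinal cord genes and in 9.17% of all compared. GTTAAT stood in 7.87%, 5.62% and 5.13% of them in the same order, AGATAA in 10.2%, 5.81% and 7.61%, and TTTATG in 9.4%, 7.13% and 7.53%. GGGCGG went the other way, with 47.7% in duodenum genes, 55% in spinal cord genes and 55.5% in all. The median CpG ratio, observed over expected CpG, was 0.454 in duodenum genes, 0.63 in spinal cord genes and 0.682 in all. Duodenum windows were also less rich in G and C, at a median of 56.3% against 60.3% for spinal cord and 59% for all. Some genes have several windows, a match is not a binding site, and these shares are descriptions.

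The *Ip6k2* probe, listed under NM_029634, had processed signals of 452 and 1320 in WT and KO spinal cord and of 139 and 572 in WT and KO duodenum, and was well above background on each array. The KO array had the higher signal in spinal cord, so this probe does not bear out that label, and its position relative to exon 6 is not given in the sources used here. The arrays are called WT and KO below as labelled. Duodenum minus spinal cord was 2.04 and 0.38 on the log2 scale, so *Ip6k2* was not called. Both values turn negative on the scale of spiked-in E1A control probes given below, which lowers them by 5.04 and 1.87.

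The scale bears on every direction given here. Each array was brought to its own 75th percentile, which was a signal of 905 in WT spinal cord, 971 in KO spinal cord, 68.0 in WT duodenum and 323 in KO duodenum. In the same order, 76.7%, 77.3%, 51.6% and 66.3% of probes were well above background, so a low transcript was harder to see in WT duodenum. On this scale the median gene was higher in duodenum by 0.63 in WT and by 0.30 in KO. Scaled instead on the spiked-in E1A control probes, every duodenum minus spinal cord value falls by 5.04 in WT and by 1.87 in KO. Then 619 genes were called higher in duodenum and 10662 in spinal cord, and the share of calls toward duodenum went from 57.9% to 5.49%. That share was 68.1% when normexp, another background correction, was used with flagged local backgrounds replaced. A duodenum excess below 5.04 in WT or 1.87 in KO thus turns over on the E1A scale, which was so in 1 genotype for 2144 of the duodenum calls. No spinal cord call can turn over on it, since it lowers every difference. By measured values, 12 of the spinal cord calls turned over in 1 genotype with normexp, and 341 with normexp and flagged backgrounds replaced. Probes spotted 10 times on each array gave a spot-to-spot SD of a tissue difference of 0.0941 in WT and 0.077 in KO at the median. It leaves out the spread from labelling, hybridisation and scaling. With 1 array per tissue and genotype no test was made, and the agreement of the genotypes is given as values.

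Both genotypes gave much the same ordering of genes. Across the 16183 genes on all 4 arrays, the WT and KO tissue differences, which share no array, had a Pearson r of 0.934 and a Spearman rho of 0.919. These are correlations across genes, which are not independent replicates. On the percentile scale, 6053 of those genes differed at least 4-fold in WT, and 6023 of them (99.5%) went the same way in KO. On the same scale 4866 genes, 30.1% of those on all arrays, lay within 2-fold between the tissues in both genotypes. This agreement of direction depends on the scale, since the E1A scale lowers WT values by 5.04 and KO values by 1.87. On it 2144 of the 3434 duodenum calls turned over in a single genotype, and no spinal cord call did.

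**Figure D1:**
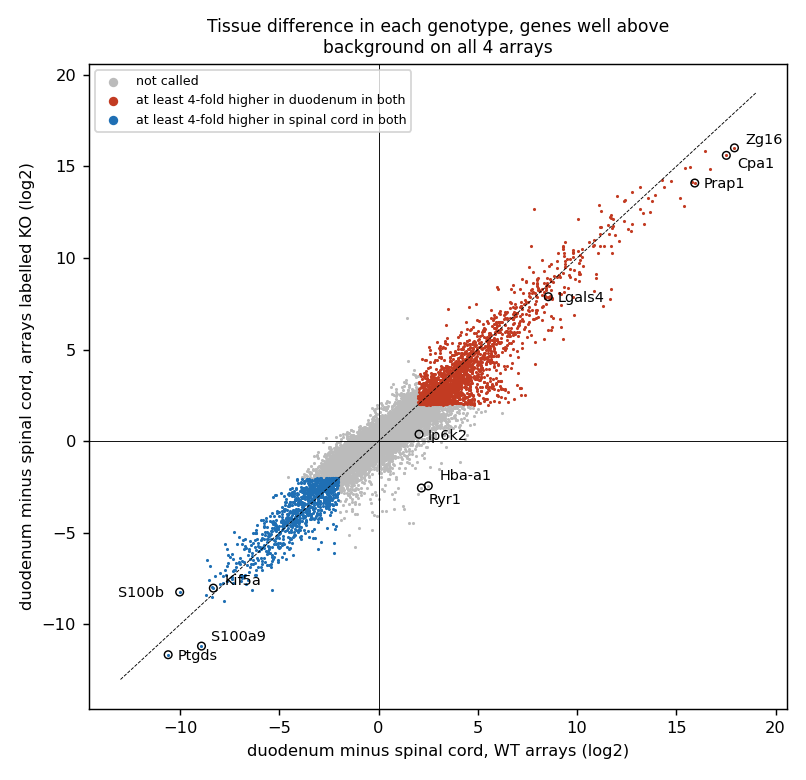
Duodenum minus spinal cord (log2) in WT on the x axis and in KO on the y axis, for 12022 genes with a symbol that were well above background on all 4 arrays. Points are genes, red where called higher in duodenum, blue where called higher in spinal cord and grey where not called, and the dashed line marks equal differences. Zg16 lies at 17.93 and 16.01 and Ptgds at -10.60 and -11.65, while Hba-a1 and Ryr1 stand off the line at 2.51 and 2.16 in WT and -2.43 and -2.55 in KO. On the E1A scale every x value is lower by 5.04 and every y value by 1.87.

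In all, 3434 genes were called higher in duodenum, 13.8% of those compared, and 2493 higher in spinal cord, 10.0% of those compared. At least 1024-fold in both genotypes, bounds included, were 203 duodenum genes and 3 spinal cord genes. At least 64-fold were 719 (20.9% of the duodenum calls) and 233 (9.35% of the spinal cord calls). On the E1A scale that order turned, with 50 duodenum and 93 spinal cord genes at 1024-fold and 175 and 1394 at 64-fold. At least 1 bound underlay 1368 of the spinal cord calls and 612 of the duodenum calls. The lowest level well above background, which sets the bounds, was -3.97 in WT duodenum and -7.66 in WT spinal cord, so sizes were limited more for genes higher in spinal cord. On the detection flags alone, 467 genes, 1.79% of the 26088 detected on any array, were well above background on both duodenum arrays and neither spinal cord array. The reverse held for 3941 genes, 15.1%, with the lower share of detected probes in duodenum beside it. Where a probe was not well above background in a tissue, its difference is a bound against the lowest signal well above background on that array, written as at least for an excess in duodenum and at most for a negative value.

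The widest measured differences toward duodenum were those of secreted proteins. *Zg16*, a lectin of secretory granules, had signals of 6.71 and 9.28 in WT and KO spinal cord and of 126423 and 203232 in WT and KO duodenum, and differed by 17.93 and 16.01. Its normalized duodenum levels, 10.86 and 9.30, lay near those of the pancreatic *Cpa1*, 11.04 and 9.05. Those of the mucus gene *Fcgbp* were 8.10 and 7.62, and the cell source of *Zg16* here was not tested. *Fcgbp*, a mucus protein, differed by 14.26 and 14.23, and *Prap1*, a secreted protein of epithelia, by 15.93 and 14.09. *Defa23*, an alpha-defensin of Paneth cells from a family of near-identical genes whose values are uncertain for that reason, differed by 16.45 and 15.84. Digestive enzymes and granule proteins of the pancreas stood beside them among the 12 named by rule, with *Cpa1* at 17.52 and 15.60, *Sycn* at 16.72 and 14.87 and *Pla2g1b* at 14.71 and 14.18. *Cpb1*, *Cel* and *Ctrl*, also pancreatic enzymes, the kallikrein gene *Klk1b5* and *Gm5771* completed the 12, at 13.43 or more in both genotypes.

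Among genes seen only in duodenum, *Tff2*, a trefoil peptide of Brunner glands and gastric mucosa, had signals of 2.27 and 1.25 in spinal cord and of 77412 and 228260 in duodenum, higher by at least 17.82 and 17.29. *Guca2b*, the hormone uroguanylin, was higher by at least 16.52 and 16.32, and *Reg3b*, an antimicrobial lectin, by at least 16.57 and 15.84. The related *Reg1* and *Reg2*, the defensin *Defa38*, the lipase relative *Pnliprp1*, the membrane protein *Ms4a10* and the pancreatic proteases *Cela2a*, *Cela3a*, *Cela3b* and *Prss2* were higher by at least 15.85 in both genotypes. None of these probes passed the background flag in either spinal cord array.

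All 21 of 21 brush border genes were called higher in duodenum, beside 13.8% of all genes, with median differences of 9.84 and 10.29. *Sis* had signals of 2.56 and 6.58 in spinal cord and 7242 and 28745 in duodenum. *Alpi*, intestinal alkaline phosphatase, had signals of 1.00 and 1.61 in spinal cord and 8246 and 36562 in duodenum, higher by at least 14.58 and 14.64. For both genes each duodenum array stood far above each spinal cord array. Of the carriers, *Slc2a2* for hexoses was higher by at least 11.76 and 12.06, *Slc5a1* for glucose by at least 9.55 and 10.85 and *Slc15a1* for peptides by at least 8.75 and 9.15. *Slc3a1*, a subunit of an amino acid exchanger, had the smallest differences of the list, 4.01 and 5.22, and turned over in WT on the E1A scale. *Tmprss15*, which encodes the enteropeptidase that activates trypsinogen in the duodenum, was higher by at least 11.49 and 10.68.

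Fat absorption followed, with 14 of 14 genes called and medians of 11.35 and 11.01. *Fabp2*, an intestinal fatty acid carrier, had signals of 6.90 and 3.95 in spinal cord and 91061 and 122969 in duodenum. *Fabp1* was higher by at least 16.27 and 15.65, and *Apoa1*, a lipoprotein component, by at least 16.60 and 15.20. *Mttp*, which loads lipid onto apolipoprotein B, differed by 8.48 and 8.66. *Scarb1*, a lipoprotein receptor, was the smallest of the list at 2.94 and 2.62 and turned over in WT on the E1A scale.

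Of 7 genes for iron and calcium uptake, 6 were called, with medians of 3.30 and 4.37 that were -1.74 and 2.50 on the E1A scale. *S100g*, a vitamin D-induced calcium buffer, differed by at least 14.48 in WT and 12.91 in KO. *Cybrd1*, a ferric reductase, differed by 3.07 and 2.99 and turned over in WT on the E1A scale. *Slc11a2*, the ferrous iron importer, was not called at 0.95 and 1.70.

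All 9 goblet cell genes were called, with medians of 13.88 and 13.88. *Spdef*, a transcription factor of that lineage, was lower on the list at 5.25 and 6.38. *Retnlb*, a goblet cell peptide, was uneven, with duodenum signals of 117 and 5.86, and was higher by at least 8.45 and 2.04. All 6 Paneth cell genes with a value were called, from *Itln1*, a lectin, higher by at least 17.01 and 15.07, to *Lyz1*, lysozyme, at 7.88 and 5.40. *Ang4*, a microbicidal ribonuclease, had duodenum signals of 8771 and 3792, higher in WT although that array had the lower percentile.

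Of 8 gastric surface and Brunner gland genes compared, 6 were called higher in duodenum. *Tff1*, a trefoil peptide, had duodenum signals of 380 and 24914, and *Gkn2*, a gastrokine, 27.6 and 3238, so the KO duodenum was the higher for both. *Gkn1* went against its list, with signals of 6674 and 5982 in spinal cord and 1.00 and 9.15 in duodenum. What its probe reads in the cord was not tested.

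All 19 transcription factors of the gut epithelium were called, with medians of 9.44 and 9.92, and 11 of them were well above background only in duodenum. *Hnf4a*, a nuclear receptor of enterocytes, had signals of 1.00 and 1.00 in spinal cord, the floor of the scale, and 2432 and 13159 in duodenum. *Cdx1* and *Cdx2*, homeobox factors of intestinal identity, were higher by at least 12.68 and 12.37 and by at least 11.49 and 11.67. *Pdx1*, expressed in duodenum and pancreas, was higher by at least 7.78 and 7.30. *Onecut2* had the smallest WT difference, at 3.30 and 3.63, and *Gata5* the smallest KO difference, at 4.99 and 2.55, both turning over in WT on the E1A scale. All 15 genes for epithelial junctions and keratins were called too, with medians of 10.13 and 10.08. *Krt20*, a keratin of differentiated enterocytes, differed by 13.55 and 13.25, and *Ocln*, a tight junction protein, by 2.08 and 3.67, turning over in WT on the E1A scale.

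The endocrine list was split, with 6 of 12 genes called higher in duodenum and 1 higher in spinal cord, beside 13.8% and 10.0% of all genes compared. *Gip*, an incretin of K cells, had signals of 1.2 and 1.75 in spinal cord and 247 and 1866 in duodenum, higher by at least 9.52 and 10.35. *Sct*, secretin, differed by 8.03 and 8.34, *Ghrl*, ghrelin, by 8.51 and 8.92, and *Tph1*, the serotonin-making enzyme of the gut, by at least 8.02 and 9.14. The granule proteins *Chga* and *Chgb*, which neurons also make, differed by -1.22 and -0.72 and by -1.95 and -0.39, neither called. *Cck* and *Sst*, peptides shared by gut and nervous system, differed by 1.53 and 1.2 and by 1.73 and 1.12 and were not called. *Nts*, neurotensin, was called higher in spinal cord at -2.47 and -2.77.

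Tuft and crypt markers gave mixed values. Of 7 tuft genes compared, 3 were called higher in duodenum, beside 13.8% of all genes compared. Among them were *Trpm5*, a channel of taste signalling, higher by at least 6.28 and 5.6, and *Avil*, an actin-binding protein, higher by at least 5.28 in WT and 4.37 in KO. On the E1A scale those 3 calls did not all keep their direction in WT. *Dclk1*, which neurons express as well, was called higher in spinal cord at -3.29 and -3.71. Of 9 crypt and stem cell genes, *Smoc2*, *Rnf43* and *Ephb2* were called higher in duodenum, beside 13.8% of all genes compared. All of these called genes turned over in WT on the E1A scale. *Lgr5*, the receptor used to mark crypt stem cells, had signals of 1036 and 1058 in spinal cord and 13.9 and 79.8 in duodenum, and was called higher in spinal cord at -2.49 and -2.14. Of 12 cell cycle genes compared, 9 were called higher in duodenum, with medians of 2.60 and 2.35 that were -2.47 and 0.48 on the E1A scale.

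Genes of the wall and of its immune cells were called as well. Of 9 smooth muscle genes compared, 8 were higher in duodenum, led by *Actg2*, the enteric smooth muscle actin, at 12.13 and 10.95. *Smtn*, smoothelin, differed by 3.64 and 1.56 and was not called. The list medians of 4.06 and 3.62 were -0.98 and 1.76 on the E1A scale. Of 13 plasma cell and lymphocyte genes compared, 12 were called. On the E1A scale 4 of that list were called, with medians of 0.57 and 3.49, and with normexp 6 were called. *Jchain*, which joins secreted IgA, differed by 10.87 and 8.21, and *Gzma*, a granzyme of intraepithelial lymphocytes, by 10.96 and 9.12. The study's methods also describe peeling the muscular layer of the gut for RNA, and the epithelial lists above show that these duodenum arrays held mucosa.

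Of 12 genes for xenobiotic metabolism, 8 were higher in duodenum, and *Ces2e*, a carboxylesterase, differed by 14.01 in WT and at least 14.18 in KO. *Cyp2b10*, a cytochrome P450, was uneven in spinal cord, with signals of 219 and 11.1, and differed by 7.85 and 12.67. Of 12 genes of the fasting response, 9 were called, with medians of 4.68 and 4.18 that were -0.36 and 2.32 on the E1A scale. *Pck1* and *Fbp1*, enzymes of gluconeogenesis, differed by 7.68 and 10.67 and by 9.82 and 10.43, and *G6pc*, which releases free glucose, by 10.09 and 9.25. *Cpt1a*, for entry of fatty acids into mitochondria, was not called at 0.79 and 1.60. All mice had been fasted, so these values do not compare fasted with fed tissue.

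Of 23 cytosolic ribosomal protein genes, 10 were called higher in duodenum, with medians of 2.53 and 1.91 that were -2.51 and 0.047 on the E1A scale. Of 24 oxidative phosphorylation genes, *Uqcrc1*, a subunit of complex III, was called at 3.0 and 2.10, beside 13.8% of all genes. It turned over in WT on the E1A scale. The medians of that list were 1.02 and 0.79, beside 0.63 and 0.30 for the median gene.

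Toward the spinal cord, *Ptgds*, a prostaglandin D synthase of meninges and glia, had signals of 111079 and 104048 in WT and KO spinal cord and 5.38 and 10.8 in duodenum. Its difference was -10.60 and -11.65, the widest measured by the fixed rule. *S100b*, a glial calcium-binding protein, differed by -10.02 and -8.23, *Gpm6b*, a membrane protein of neurons and glia, by -8.67 and -8.38, and *Bcan*, a proteoglycan of the neural matrix, by -8.39 and -7.97. Of the axonal motor proteins, *Kif5a* differed by -8.32 and -8.02, *Kif1a* by -8.01 and -7.79 and *Kif5c* by -8.52 and -7.57. *Stmn4*, *Scrt1*, *Kcnj10* and *Rbfox3* of neurons and glia were at -7.61 or below in both genotypes. *S100a9*, a protein of neutrophils, stood among them at -8.92 and -11.18.

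Genes seen only in spinal cord by the same rule were neuronal or glial for the most part. *Slc32a1*, the vesicular carrier of GABA and glycine, had signals of 43902 and 46927 in spinal cord and 1.21 and 3.06 in duodenum, a difference of at most -9.57 and -11.81. *Mobp*, a protein of central myelin, was at at most -9.33 and -11.89, *Nefm*, a neurofilament, at at most -8.75 and -11.06, and *Gfap*, the astrocyte filament, at at most -8.22 and -10.21. *Mlc1* and *Gjb6* of astrocytes, *Slc24a2*, *Ntsr2*, *Vsnl1*, *Cpne6*, *Kndc1* and *Bend6* were at -7.97 or below in WT and at -10.07 or below in KO. The WT bounds are the narrower, since the lowest level well above background was -3.97 in WT duodenum and -6.22 in KO duodenum, log2 against the 75th percentile.

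Of 17 pan-neuronal genes, 16 were called higher in spinal cord, beside 10.0% of all genes, with medians of -6.53 and -6.66. With normexp 16 were called as well. *Nefl*, the light neurofilament, had signals of 95441 and 98892 in spinal cord and 1.04 and 6.13 in duodenum. *Nefh*, the heavy neurofilament, differed by at most -10.30 in WT and -10.50 in KO, and *Rbfox3*, the antigen NeuN, by -7.66 and -7.61. *Snap25*, a presynaptic fusion protein, had signals of 43673 and 44189 in spinal cord and 1210 and 3344 in duodenum, differed by -1.44 and -2.13 and was not called. In duodenum, 11 of the 17 in WT and 16 in KO passed the background flag, some of them at low signals. *Rbfox3* passed it at 6.44 in WT and 27.96 in KO duodenum, where the 75th percentiles were 68.0 and 323.

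Transmitter genes were mostly called on the cord side. Of 11 for GABA and glycine transmission, 9 were called, and 10 were well above background only in spinal cord. *Gad1* had signals of 5965 and 5901 in spinal cord and 1.00 and 3.22 in duodenum, a difference of at most -6.69 and -8.82. *Gphn*, the scaffold gephyrin, which other tissues use for cofactor synthesis, differed by -2.04 and -1.39 and was not called. Of 12 glutamate genes, 10 were called, and *Slc17a6*, a vesicular glutamate carrier of cord neurons, was at at most -6.38 and -8.52. Fewer were called with normexp, 4 of the glutamate genes and 6 of those for GABA and glycine. The glutamate medians were then -0.96 and -2.26. *Slc17a7*, its counterpart in cortex, had signals of 15.5 and 8.89 in spinal cord, too low for a bound against the duodenum arrays.

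Of 7 cholinergic and motor neuron genes, 6 were called, and *Calca*, the CGRP precursor, had signals of 14254 and 13950 in spinal cord and 1.00 and 1.72 in duodenum. *Slc18a3*, the vesicular carrier of acetylcholine, differed by -3.96 and -5.23. Of 12 synaptic vesicle genes, 8 were called. By normexp, 5 of the cholinergic and motor neuron genes and 6 of the vesicle genes were called. *Syp*, synaptophysin, was uneven, with duodenum signals of 1642 and 443 and differences of -0.07 and -4.06, and was not called.

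All 13 astrocyte genes and 12 of 18 oligodendrocyte genes were called higher in spinal cord. These were 10 and 8 with normexp. *Mag*, a glycoprotein of myelin, had signals of 20962 and 23047 in spinal cord and 19.2 and 28.1 in duodenum. *Olig1*, a factor of the oligodendrocyte lineage, was at at most -7.23 and -9.52, and *Slc1a2*, the glial glutamate carrier, at at most -7.04 in WT and -7.31 in KO. The probe chosen for *Mbp*, the brightest of its 3 by mean over the arrays, differed by 0.17 and 0.70, and *Mbp* was not called. A second *Mbp* probe had signals of 24633 and 26948 in spinal cord and 14.7 and 12.1 in duodenum, and differed by -6.97 and -9.53. The last *Mbp* probe went the other way at 3.58 and 1.79, turning over in both genotypes on the E1A scale. So the call for *Mbp* depends on the probe. The probes of *Ermn*, another myelin gene, differed by -1.84 and -4.09 and by -0.64 and 0.17, and neither reached the call. Of 2798 genes with at least 2 probes well above background on all arrays, 63 had probes at least 2-fold apart in opposite directions. *Gjb1* and *Aspa*, which the gut also expresses, differed by 2.96 and 1.40 and by 2.90 and 0.46, and neither was called.

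No Hox gene was called higher in duodenum, beside 13.8% of all genes compared. Of the 34 Hox genes compared, 15 were called higher in spinal cord, beside 10.0% of all, and 6 were called with normexp. On the detection flags, 15 of the list were well above background only in spinal cord, and 11 passed the flag in WT duodenum. A gene not seen in duodenum is called only if its bound reaches 4-fold, so an uncalled gene need not be alike in the tissues. Hox genes keep the identity of a position along the body axis. *Hoxb8* had signals of 7065 and 5207 in spinal cord and 1.07 and 3.46 in duodenum, a difference of at most -6.93 and -8.64. *Hoxa7* differed by -5.50 and -6.08, *Hoxb6* by -4.46 and -5.36 and *Hoxc6* by at most -5.55 in WT and -5.98 in KO. Anterior and posterior members were found on both sides of the call. Of the anterior ones, *Hoxc4* was called at -3.54 and -3.61 and *Hoxa3* was not at -2.04 and -1.84. Of the posterior ones, *Hoxc10* was called at at most -3.22 and -5.87 and *Hoxa10* was not at at most -1.78 and -4.13. *Hoxa9* had a probe at 0.47 and 0.48 and another, not well above background in duodenum, with signals of 151 and 159 in spinal cord. *Hoxc12* was positive in WT at 4.58, with signals of 5.73 in spinal cord and 10.3 in duodenum, turned over on the E1A scale and had no value in KO. Of 12 other transcription factors of spinal neurons compared, 3 were called higher in spinal cord, and 0 with normexp. Among the 3 were *Lhx5* at at most -3.65 in WT and -3.71 in KO and *Pou4f1* at at most -3.16 in WT and -4.13 in KO. Of that list, 6 were well above background only in spinal cord, and 4 passed the flag in WT duodenum.

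**Figure D2:**
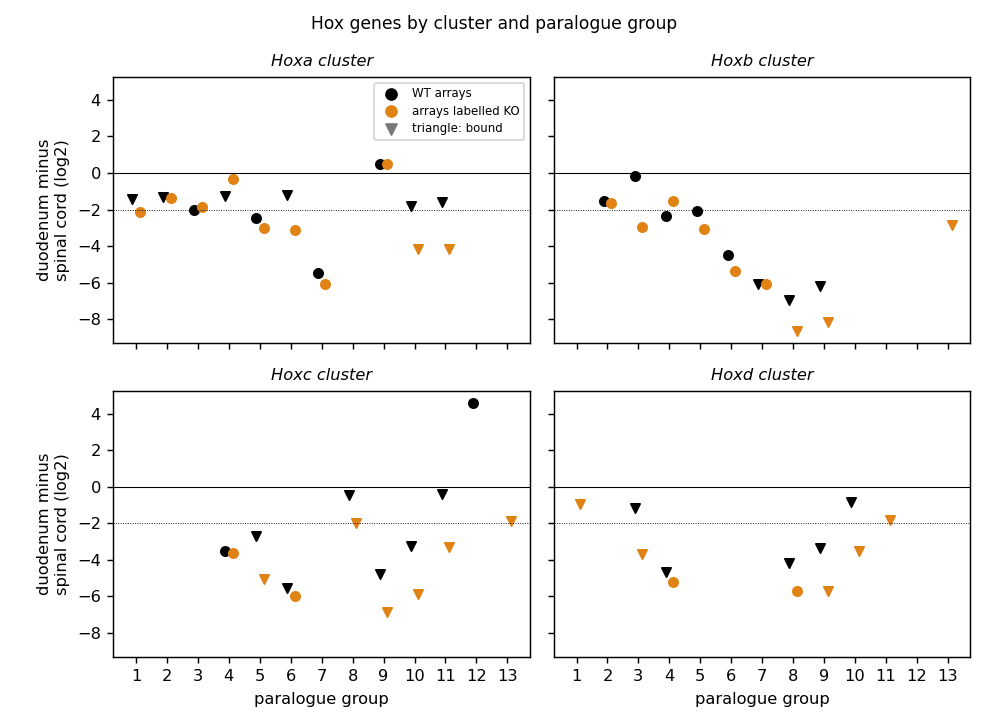
Duodenum minus spinal cord (log2, y axis) for Hox genes by paralogue group (x axis), in 1 panel for each cluster, with WT in black and KO in orange. Circles are measured differences, triangles are bounds from above and the dotted line marks the call at -2. Points above 0 are those of Hoxa9, at 0.47 and 0.48, and of Hoxc12 in WT, at 4.58, and all turn over on the E1A scale, while Hoxb8 is at most -6.93 and -8.64.

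Macrophages and endothelial cells occur in both organs. Of 13 microglia and macrophage genes, 2 were called, both higher in spinal cord, beside 10.0% of all genes compared, and 0 were called with normexp. The list medians of 0.47 and 0.44 were -4.57 and -1.43 on the E1A scale. *Trem2*, a receptor of microglia, differed by -3.96 and -3.82, and *Sall1*, a factor of microglial identity, by at most -2.37 in WT and -4.53 in KO. *C1qa* of the complement system differed by 0.47 and 0.47, and *Csf1r*, the receptor for a macrophage growth factor, by 0.99 and 0.44. Of 8 endothelial genes, *Kdr*, a receptor for VEGF, was called, higher in duodenum at 4.61 and 2.24 and turning over in WT on the E1A scale, beside 13.8% of all genes compared. The endothelial medians of -0.17 and -0.39 were -5.21 and -2.26 on that scale. Among the genes of the blood-brain barrier, *Cldn5*, *Slco1c1*, *Slco1a4* and *Slc2a1* were called higher in spinal cord, and *Lsr*, which epithelia also use, higher in duodenum at 5.18 and 4.33. These were 4 and 1 of 8 compared, beside 10.0% and 13.8% of all genes, and 1 and 1 with normexp.

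Of 9 neuropeptides shared by gut and cord, 4 were called higher in spinal cord and 1 in duodenum, beside 10.0% and 13.8% of all genes compared. In each direction 1 was called with normexp. *Penk*, preproenkephalin, differed by -4.43 and -4.13, and *Adcyap1*, the PACAP precursor, by at most -3.96 and -5.97. *Gal*, galanin, was higher in duodenum at 2.67 and 3.41 and turned over in WT on the E1A scale. *Vip*, a peptide of secretomotor neurons, was at 1.61 and 2.09 and fell short of the call in WT. Of 8 enteric neuron genes compared, 3 were called higher in duodenum and 3 higher in spinal cord, beside 13.8% and 10.0% of all genes compared. These were 1 and 0 with normexp. *Hand2*, a transcription factor of enteric neurons, had signals of 1.00 and 2.68 in spinal cord and 17.3 and 65.7 in duodenum. It was higher by at least 5.69 and 5.53 and *Tbx3* by 5.11 and 4.33, whereas *Gfra1*, *Ednrb* and *Uts2b* were called higher in spinal cord.

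Several gene families had members called in opposite directions. Of the fatty acid-binding proteins, *Fabp3* and *Fabp7* stood opposite *Fabp1* and *Fabp2*, at -5.99 and -5.76 and at at most -4.88 in WT and -6.48 in KO. The sugar carriers *Slc2a2*, *Slc2a5* and *Slc2a7* were called higher in duodenum, and *Slc2a1* and *Slc2a3*, which supply the nervous system, higher in spinal cord at -3.02 and -2.89 and at -4.66 and -4.53.

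Enzymes that phosphorylate hexoses were split too, with *Hkdc1* at 9.39 and 9.48 and *Khk*, ketohexokinase, at 5.56 and 5.43, against *Hk1* at -3.27 and -3.05. *Elavl1*, the ubiquitous member of its RNA-binding family, was at 2.44 and 2.05, turning over in WT on the E1A scale, and it was at -0.56 and -0.47 with the mean of its probes. Its neuronal relatives *Elavl2* and *Elavl3* were called higher in spinal cord, at at most -4.93 and -7.29 and at at most -7.0 in WT and -7.93 in KO. *Elavl4* was at -2.75 and -3.28 by the names of the scanner files, and its probe values there do not match those of the deposited table.

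Of 14 intermediate filament genes, 6 were called in each direction, the keratins and *Des* toward duodenum and the neurofilament genes, *Prph* and *Gfap* toward spinal cord, with *Des* turning over in neither genotype on the E1A scale. *Eno2* and *Pygb* were called higher in spinal cord among the enolases and glycogen phosphorylases, at -6.76 and -7.35 and at -3.54 and -2.92. Of the actins, *Actb* was called higher in duodenum at 3.75 and 2.18, turning over in WT on the E1A scale, while *Actg1* was at 1.85 and 1.85 and was not called. No creatine kinase was called.

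**Figure D3:**
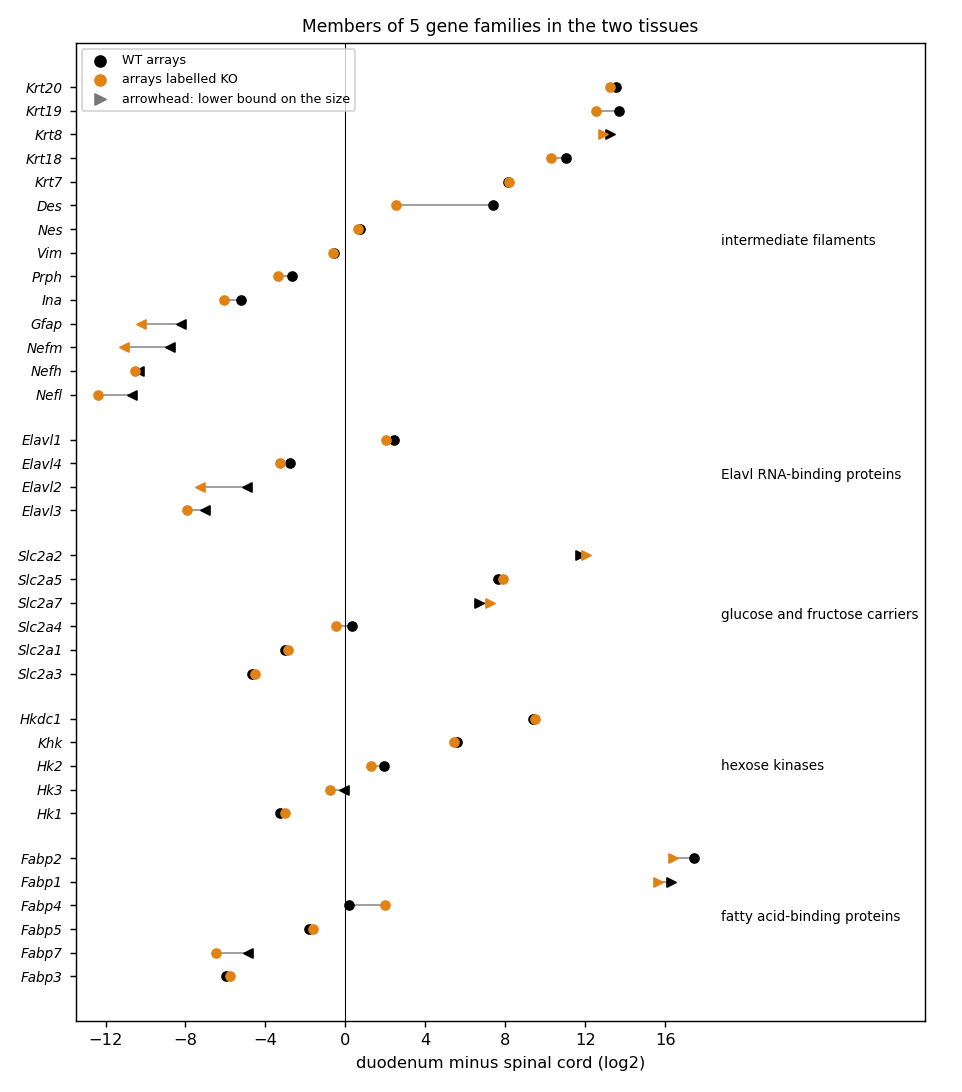
Duodenum minus spinal cord (log2, x axis) for members of 5 gene families, WT in black and KO in orange, with a line joining the genotypes. Circles are measured differences and arrowheads bounds. Hkdc1 at 9.39 and 9.48 and Hk1 at -3.27 and -3.05 show the spread within a family, and on the E1A scale Elavl1, Hk2 and Nes are among the positive points that turn over in WT.

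Genes for inositol phosphates and pyrophosphates, the pathway of the deleted kinase, mostly did not reach the call. Of 13, *Nudt10* and *Nudt11*, phosphohydrolases that act on these compounds, were called higher in spinal cord, beside 10.0% of all genes compared. *Nudt10* had signals of 2246 and 2214 in spinal cord and 2.76 and 3.98 in duodenum, a difference of at most -5.28 and -7.41. *Ip6k1*, a kinase of the same family as *Ip6k2*, differed by -0.16 and 0.15, and *Ipmk*, the multikinase that makes the precursors, by 1.93 and 2.28. The medians of the list were -0.077 and -0.20, beside 0.63 and 0.30 for the median gene, and -5.03 and -2.07 on the E1A scale.

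**Figure D4:**
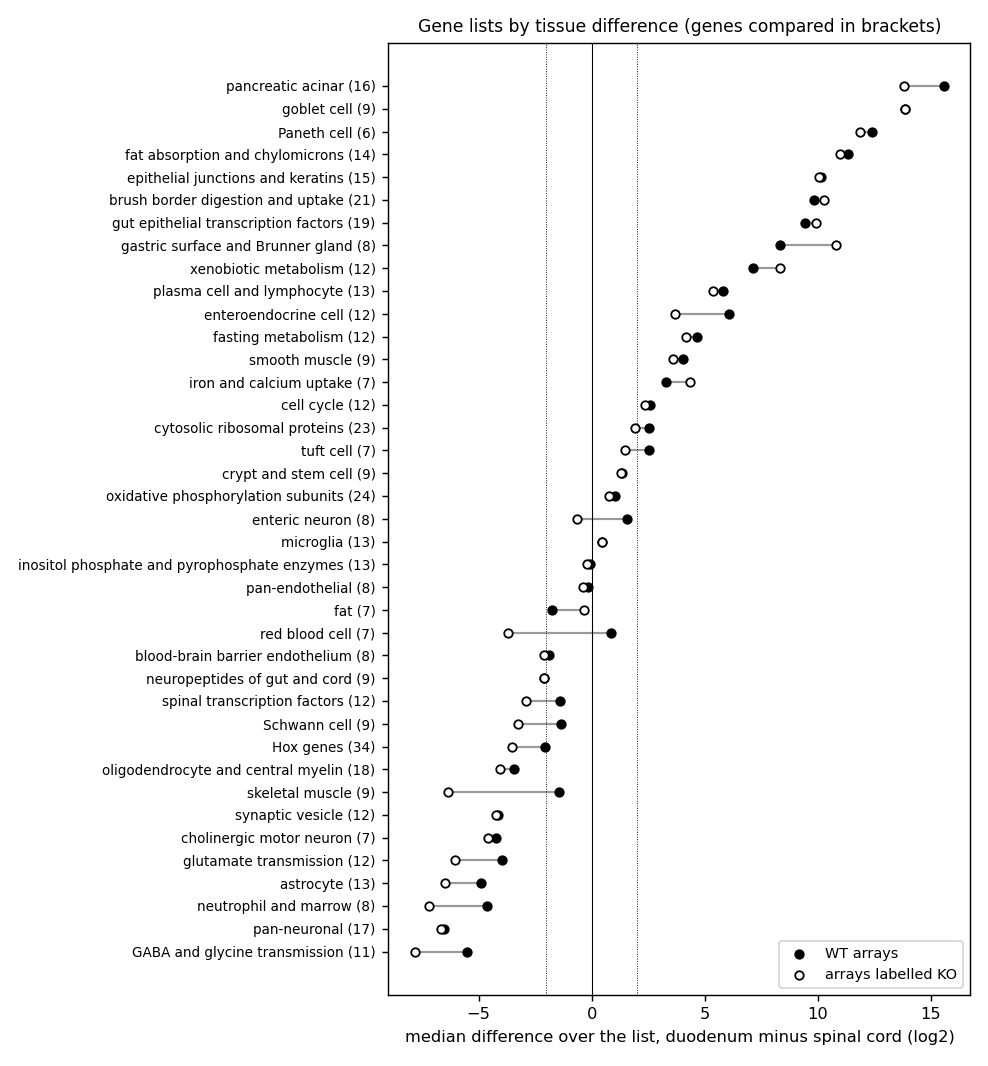
Median difference, duodenum minus spinal cord (log2, x axis), over the members of each gene list with a value, WT filled and KO open, with the number of genes compared in brackets. Dotted lines mark 4-fold. Pancreatic acinar genes stand at 15.59 and 13.80 and pan-neuronal genes at -6.53 and -6.66. On the E1A scale the difference of a gene is lower by 5.04 in WT and by 1.87 in KO. A list median can move by another amount, since the members with a value can change. The enteroendocrine median in WT, 6.09, was -1.13 on that scale.

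Marker genes of neighbouring organs moved with the tissues. All 16 pancreatic acinar genes were called higher in duodenum, with medians of 15.59 and 13.80. *Ptf1a*, a transcription factor that marks acinar cells, had signals of 5.82 and 3.01 in spinal cord and 175 and 1122 in duodenum, and *Rbpjl*, its partner, differed by 5.68 and 6.73. The summed level of the list, log2 against the 75th percentile, was 14.54 and 12.81 in WT and KO duodenum and 0.075 and 0.062 in spinal cord. Pancreatic genes stand among those named above toward duodenum, and the part of pancreatic RNA in other differences was not tested. Markers of neutrophils and marrow were called higher in spinal cord for 6 of 8 genes, and for 3 with normexp. Their summed level was 5.83 and 6.78 in spinal cord and 0.49 and -0.17 in duodenum. *S100a8* and *S100a9* were at at most -7.37 and -10.67 and at -8.92 and -11.18, and *Elane* and *Prtn3* were not called.

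Muscle and peripheral nerve markers differed between the spinal cord arrays themselves. Skeletal muscle genes had a summed level of 2.15 and 6.10 in WT and KO spinal cord and 0.21 and 0.41 in duodenum. Of 9 compared, 4 were called higher in spinal cord, and 0 with normexp. *Myh4*, a fast myosin, had signals of 1246 and 21634 in spinal cord and 1.00 and 1.61 in duodenum. The list medians were -1.46 and -6.36. Schwann cell genes had a summed level of 2.97 and 5.09 in spinal cord and 3.20 and 1.47 in duodenum. Of these, 1 of 9 was called higher in spinal cord, beside 10.0% of all genes compared. *Prx*, periaxin of peripheral myelin, had signals of 188 and 7564 in spinal cord. Of 7 fat cell genes compared, *Cox8b* was called, higher in spinal cord at -3.30 and -5.28, beside 10.0% of all genes.

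Red blood cell genes, whose globin copies are near-identical and uncertain for that reason, had a summed level of 7.83 and 8.45 in spinal cord and 10.58 and 6.46 in duodenum. Their median difference was 0.84 and -3.69, and none of the 7 was called. The methods state that animals were perfused to remove blood. The part of these cells in other differences was not tested.

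**Figure D5:**
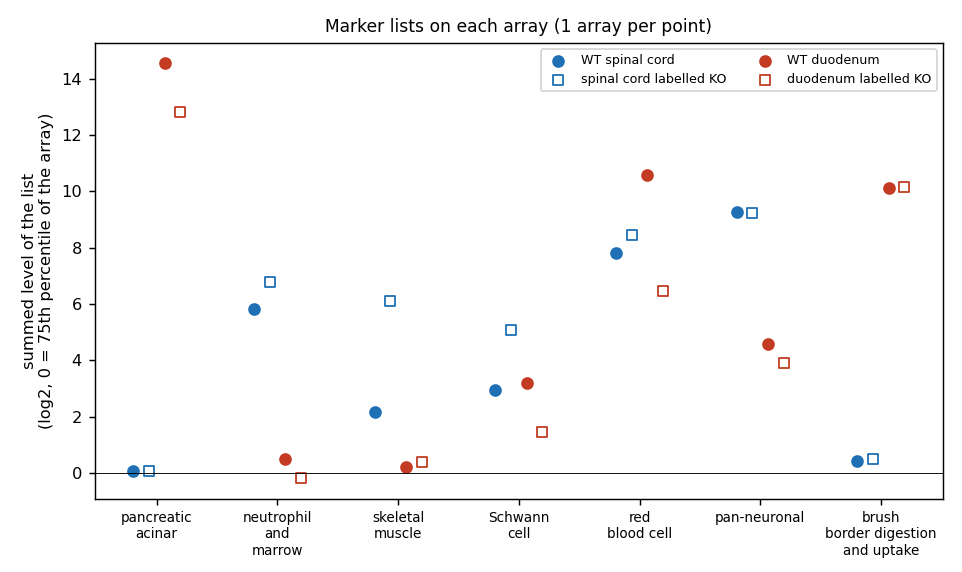
Summed level of marker lists (log2, y axis, 0 is the 75th percentile of the array) on each of the 4 arrays, spinal cord in blue and duodenum in red, WT as filled circles and KO as open squares. Pancreatic acinar genes stand at 14.54 and 12.81 in duodenum and 0.075 and 0.062 in spinal cord, and skeletal muscle genes at 2.15 and 6.10 in WT and KO spinal cord.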

How the data were processed

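Total RNA was labelled with Cy3 and hybridised to 4 one-colour Agilent arrays of one mouse design. The authors deposited scanner output with processed signal intensity per spot, background-subtracted within each array by Agilent Feature Extraction 11.5.1.1 per the file headers and not normalized between arrays, and a table of log2 values that the authors had normalized. For that table the method is not given in the sources used here. On the spinal cord arrays its values followed a quantile normalization rebuilt from the scanner files, with a median absolute difference of 0.000684. That check was made on the spinal cord arrays only. The table served as an alternative, without 6 probes of 4 genes (*Cckbr*, *Drd5*, *Elavl4*, *Htr1b*) that differed by over 0.1 on a spinal cord array. Log2 is here on signals raised to at least 1.

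Control spots and spots with outlier flags (89 to 133 of 43020 an array) were left out, and spots of a probe were averaged. The log2 signal minus the 75th percentile of its array was taken as the level. Of 39429 probes, 28115 had a RefSeq accession and 26575 were named from RefSeq (GRCm38.p6). A gene was represented by its probe with the highest mean. Where a probe was not well above background, the difference was bounded by the higher of its own level and the lowest level well above background on that array. Named by rule were *Ip6k2*, the 12 genes with the largest smaller-of-both-genotypes difference in each direction, the 12 with the highest bound, and genes at least 4-fold apart in opposite directions. Members and gene lists were chosen with earlier results of these data known. No p-value was computed, since each genotype and tissue has 1 array, and the number of arrays limits the precision. The computation of the calls was checked on simulated signals with known differences, which does not measure the error of these arrays. Some genes are not reported here. Alternatives were normexp (limma 3.58.1, R 4.3.3, offset 50), other scalings, the fold, the detection filter and the mean of probes. Python 3.11.15, numpy 2.4.6, pandas 2.3.3 and matplotlib 3.10.9 were used.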

Additional observations from a re-analysis of the deposited data

Results flagged for a closer look

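*Hba-a1*, an alpha-globin of red blood cells, and *Ryr1*, the calcium release channel of skeletal muscle, moved at least 4-fold in opposite directions in the genotypes, and neither difference between genotypes was tested. *Hba-a1* was higher in duodenum by 2.51 in WT and was at -2.43 in KO, with signals of 40862 and 81434 in WT and KO spinal cord and 17436 and 5007 in duodenum. *Ryr1* was at 2.16 in WT and -2.55 in KO, with signals of 39.2 and 533 in spinal cord and 13.2 and 30.2 in duodenum. The E1A scale lowers WT values by 5.04 and KO values by 1.87, so both WT values turn over on it. *Hba-a1* and *Ryr1* are then lower in duodenum in both genotypes, as their unscaled signals were. Beside them, the red blood cell list had median differences of 0.84 and -3.69 and the skeletal muscle list -1.46 and -6.36, and the part of those cells was not tested.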

How the results depend on the processing

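Genes called higher in duodenum, 3434, were 1571 with normexp and 619 on the E1A scale, and 6122 at 2-fold and 1905 at 8-fold. Genes called higher in spinal cord, 2493, were 1016 with normexp, 1147 with normexp and flagged backgrounds replaced, 10662 on the E1A scale, 4553 at 2-fold, 1449 at 8-fold and 1125 where all 4 arrays had to be well above background. The median gene difference in WT, 0.63, was 0.33 by quantile normalization, 0.33 in the deposited table and -4.41 on the E1A scale. In KO, 0.30 became 0.56 with either normexp, 0.57 with the median of all probes and -1.57 on the E1A scale. With a weaker detection criterion, positive and significant over background, 279 genes were seen only in duodenum, against 467, and 2510 only in spinal cord, against 3941. The mean of both genotypes turned negative on the E1A scale for cell cycle genes (-0.997), glucose and fructose carriers (-0.022) and actins (-0.91), and for *Actb* (-0.48), *Cybrd1* (-0.43), *Elavl1* (-1.21), *Ephb2* (-0.82), *Gal* (-0.41), *Kdr* (-0.026), *Ocln* (-0.58), *Rnf43* (-0.68), *Scarb1* (-0.67) and *Uqcrc1* (-0.90). *Elavl1* was at -0.52 with the mean of its probes. The cause of these changes was not tested, beyond the shift that the E1A scale gives every gene by construction. Values short of 4-fold in a genotype could turn over there too, such as the medians of ribosomal proteins (-1.23) and hexose kinases (-1.37), and *Smtn*. No paired analysis was possible because the groups share fewer than 2 replicate numbers, with 1 array in each. The tissues were compared within each genotype, and a fit over both with genotype as a block was not run. Low transcripts were limited most in WT duodenum, where 51.6% of probes were well above background.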
